A study of Saccharomyces cerevisiae with 6 samples.

Results

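The kinetochore subunits of budding yeast, Saccharomyces cerevisiae, were followed across an array experiment on zymolyase, a preparation of enzymes used to break down yeast cell walls by cutting their glucan. The genes were 47 named subunits and close regulators of the kinetochore, of which 46 matched a probe set annotated to exactly 1 gene, among 5449 genes so matched in the whole series. All 46 passed the filter on dim probe sets, and each had a single probe set. WIP1 is named only. The study compared 3 control samples with 3 samples held for 10 min at 37 °C in zymolyase (30 U/ml), each on its own Affymetrix array, to ask which transcripts differ after digestion of the wall. All 6 samples came from the strain labelled BY4743, described as a MATa/α diploid with the alleles met15Δ0, lys2Δ0, ura3Δ0, leu2Δ0 and his3Δ1, and grown in YPD medium for 2 days at 25 °C. The temperature of the control cells during the digestion step is not given in the sources used here, so a step to 37 °C and the enzyme cannot be told apart. Nothing in the labels says that replicates were separate cultures, so the spread behind every p-value may be technical. The genes were proposed with results of this same contrast known, so the calls below describe these arrays and are not independent evidence for anything about the kinetochore as a group.

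The kinetochore is the protein assembly that joins a centromere to the microtubules of the spindle. In budding yeast it is built on a short centromere sequence that is bound by the CBF3 complex and Cbf1 and wrapped on a nucleosome holding the histone variant Cse4. Above it lie the inner CTF19 complex, then the MIND, SPC105 and NDC80 complexes, which together contact microtubules, and the ring-forming DASH complex. The chromosomal passenger complex, with the kinase Ipl1, corrects faulty attachments. Most of these proteins are needed in every dividing cell, while many inner CTF19 subunits can be deleted without loss of viability.

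Values are MAS5 signals in intensity units, a signal is given as the mean ± SD over 3 arrays, and log2 fold changes are zymolyase minus control with the SE of the limma fit. A call is an adjusted p under 0.05 after Benjamini-Hochberg adjustment over 5394 probe sets. Arrays of the same group correlated at 0.985 to 0.987 in log2 signal, and arrays of different groups at 0.938 to 0.947. The 99th percentile of probe sets for a second species, used as the background, lay between 21.0 and 31.4 per array. The signals of STE3 and MF(ALPHA)1, genes of the α type, were 3035 ± 89.7 and 13248 ± 1346 in the control, against 48.4 ± 11.1 and 32.8 ± 6.94 for STE2 and MFA1 of the a type. HO and RME1, repressed in a/α diploids, gave 1214 ± 65.2 and 2049 ± 152, and URA3 and LEU2, listed as deleted, gave 1802 ± 66.8 and 671 ± 38.5, so the labelled diploid genotype is not borne out by these genes. The ratio of the 3' to the 5' control probe set of ACT1, a measure of RNA length, was 2.04 ± 0.16 in the control and 2.44 ± 0.11 with zymolyase (two-sided exact permutation test, p = 0.1, the smallest that 3 against 3 arrays allow).

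Of the 46 measured subunits, 29 fell, 9 rose and 8 were not called, where 71.5% of all tested probe sets were called in either direction. The falls made up 63.0% of them, where 38.9% of all were called lower, and the rises 19.6%, where 32.6% of all were called higher. In these bulk samples, fewer cells with a transcript and less RNA per cell cannot be told apart. Since this contrast was known when the genes were chosen, nothing is read from these shares. The median log2 fold change was -0.42, beside -0.08 over all tested probe sets. Treated and control arrays occupied separate ranges in 39 of 46 subunits, or 84.8%, beside 73.3% of all probe sets. The falls were led by MHF1, and 6 subunits fell at least 2-fold as measured, while CTF19 alone rose that far. Among all probe sets 2.21% were called at least 2-fold lower and 8.06% at least 2-fold higher.

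**Figure D1:**
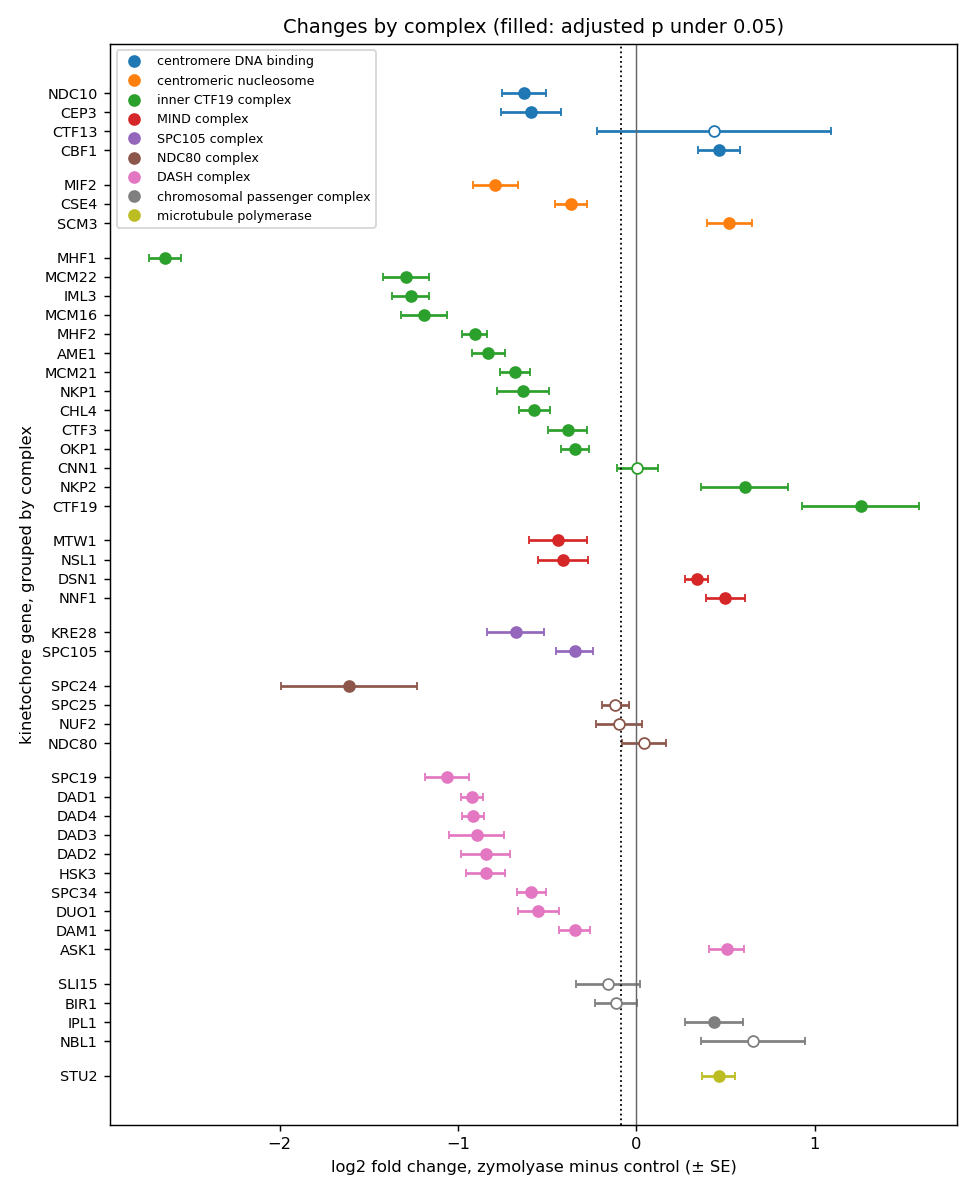
Log2 fold change (zymolyase minus control, x axis) with its SE for 46 kinetochore genes, grouped by complex on the y axis. Filled points passed an adjusted p of 0.05, the dotted line is the median of all tested probe sets (-0.08), and MHF1 lies farthest to the left at -2.64.

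At the centromere DNA, 2 of 4 genes fell, 1 rose and 1 was not called. Among all probe sets 38.9% were called lower, 32.6% were called higher and 73.3% had separate ranges. NDC10, the CBF3 subunit listed in the reference as CBF2, gave 227, 177 and 212 on the control arrays and 128, 129 and 139.5 with zymolyase. CEP3, the zinc-cluster subunit of CBF3, gave 112, 99.7 and 135 against 79.2, 81.8 and 68.2. Every zymolyase array lay below every control array for both genes, with log2 fold changes of -0.63 ± 0.12 (adjusted p = 0.00057) and -0.59 ± 0.17 (0.0074). CBF1, which also acts as a transcription factor of sulfur metabolism genes, went the other way, from 252, 223 and 259.6 to 391, 282 and 348 (0.47 ± 0.12, adjusted p = 0.0035). CTF13, the F-box subunit of CBF3, was below background on 2 of 3 control arrays and on all zymolyase arrays, so no change is given for it.

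The centromeric nucleosome genes also split. MIF2, which binds the Cse4 nucleosome, gave 356, 325 and 344 in the control and 218, 158 and 224 with zymolyase. The groups were well apart, and the log2 fold change was -0.79 ± 0.13 (adjusted p = 9.9e-05). CSE4, the centromeric histone H3 variant, fell from 344 ± 13.8 to 267 ± 16.1 (-0.37 ± 0.09, adjusted p = 0.0022). Once the dependence of the changes on coding length, given further on, was taken out, CSE4 was at -0.096 and no longer called (adjusted p = 0.34). SCM3, the chaperone that deposits Cse4, rose from 106, 121 and 118 to 155, 176 and 166 (0.52 ± 0.13, adjusted p = 0.0024).

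Among the 14 measured subunits of the inner CTF19 complex, 11 fell, 2 rose and 1 was not called, with a median log2 fold change of -0.66. Of all probe sets, 38.9% were called lower and 32.6% higher. The measured subunits had a median length of 856.5 nt, and of all probe sets from 500 nt to below 1000 nt 62.1% were called lower. MHF1, a histone-fold protein that also works with the Mph1 helicase in DNA repair, gave 1415, 1354 and 1490 on the control arrays and 213, 209 and 262 with zymolyase. Its highest treated array was far below its lowest control array, and the log2 fold change was -2.64 ± 0.09 (adjusted p = 3.0e-10), or 6.25-fold lower. Its binding partner MHF2 gave 625, 626 and 659 in the control and 337, 346 and 337 with zymolyase. The arrays of each group lay close together, and the fall was smaller than that of MHF1, at -0.91 ± 0.07 (adjusted p = 1.3e-07).

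The genes of the Ctf3 branch fell unevenly. MCM22 went from 200.1, 193 and 219 to 78.0, 89.8 and 82.6, and MCM16 from 270.5, 219 and 294 to 118, 119 and 105. These subunits, which bind each other, had nearly the same log2 fold change, -1.29 ± 0.13 (adjusted p = 1.6e-06) and -1.19 ± 0.13 (3.5e-06). CTF3, the large scaffold of this branch, fell less, from 194 ± 6.39 to 149 ± 8.99 (-0.38 ± 0.11, adjusted p = 0.0070). CNN1, the CENP-T homologue that recruits the Ndc80 complex, gave 166 ± 8.49 and 168 ± 15.0, with overlapping ranges (0.01 ± 0.12, adjusted p = 0.96).

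IML3 and CHL4 form another pair of partners, needed for cohesin enrichment around centromeres. IML3 gave 387, 401 and 344 in the control and 160.2, 143 and 168 with zymolyase, a fall with no overlap (-1.26 ± 0.10, adjusted p = 2.4e-07). CHL4 fell from 413 ± 26.5 to 278 ± 17.6 (-0.57 ± 0.09, adjusted p = 6.6e-05). The COMA subcomplex, formed by Ctf19, Okp1, Mcm21 and Ame1, held both directions. AME1, an essential subunit, went from 351, 345 and 359 to 201, 209.8 and 183 (-0.83 ± 0.09, adjusted p = 3.8e-06), MCM21 fell by 0.68 and OKP1 by 0.34 on the log2 scale. CTF19 rose from 33.7, 18.8 and 17.7 to 49.9, 51.1 and 60.0 (1.26 ± 0.33, adjusted p = 0.0039). Its signals were dim, 2 of 3 control arrays lay below background, and with 50 added to every signal its log2 fold change was 0.50 instead of 1.26.

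NKP1 and NKP2, non-essential subunits that bind each other, also parted. NKP1 fell from 249 ± 45.4 to 159.6 ± 20.4 (-0.63 ± 0.15, adjusted p = 0.0017). NKP2 gave 52.6, 39.2 and 46.1 in the control and 56.2, 91.8 and 65.2 with zymolyase, and its rise (0.61 ± 0.24, adjusted p = 0.039) was just inside the threshold. Its adjusted p was 0.12 without control replicate 2, 0.069 without control replicate 3, 0.17 without zymolyase replicate 2 and 0.056 without zymolyase replicate 3. Both rises of the inner complex belong to genes that overlap a gene on the other strand, the only 2 of the 46 that do. IRC15, which overlaps CTF19, rose from 39.0 ± 13.0 to 74.1 ± 4.82 (0.98 ± 0.26, adjusted p = 0.0043). TAD3, which overlaps NKP2, rose from 99.6 ± 14.9 to 195 ± 11.0 (0.98 ± 0.14, adjusted p = 3.3e-05). The part of the overlapping genes in the signals of CTF19 and NKP2 was not tested.

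**Figure D2:**
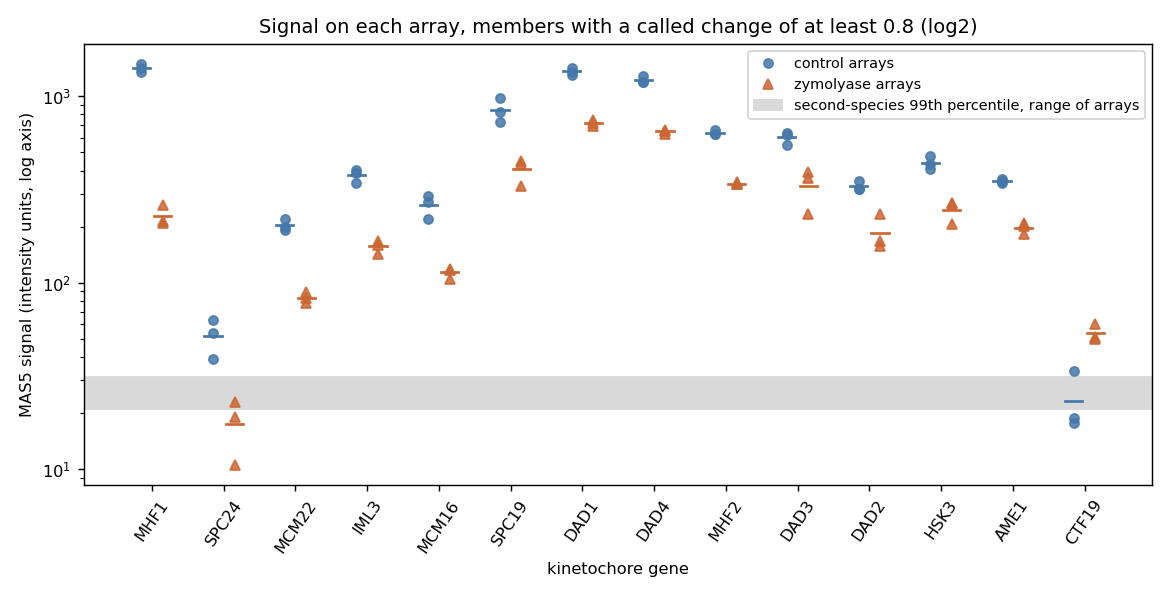
MAS5 signal (log axis) on each array for the 14 kinetochore genes called with an absolute log2 fold change of at least 0.8, with control arrays as circles, zymolyase arrays as triangles and bars for the mean of 3 arrays. The grey band spans the background percentile of the 6 arrays (21.0 to 31.4), and only SPC24 and CTF19 have arrays in or below it.

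In the MIND complex, whose subunits carry the outer kinetochore, 2 genes fell and 2 rose. Over all probe sets 38.9% were called lower, 32.6% were called higher and 73.3% had separate ranges. NNF1 rose from 214, 216 and 265 to 312, 361 and 307 (0.50 ± 0.11, adjusted p = 0.0012), and DSN1 from 559 ± 8.95 to 708 ± 24.2 (0.34 ± 0.06, adjusted p = 0.00036). MTW1 fell from 172, 134 and 131 to 121, 88.2 and 115 (-0.44 ± 0.16, adjusted p = 0.029), and NSL1 from 135 ± 10.5 to 101 ± 8.16 (-0.41 ± 0.14, adjusted p = 0.018). The groups did not overlap in any of these genes, but both falls lost their calls without control replicate 1 (adjusted p = 0.14 for MTW1 and 0.070 for NSL1), and MTW1 also without zymolyase replicate 2 (0.11). With the dependence on length taken out, NNF1 alone was called, and MTW1 was at -0.27 (adjusted p = 0.16), NSL1 at -0.12 (0.45) and DSN1 at 0.13 (0.09).

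Both genes of the SPC105 complex, the scaffold on which checkpoint proteins gather, fell, where 38.9% of all probe sets were called lower. KRE28 gave 239.6, 201 and 243 in the control and 109, 150.1 and 174 with zymolyase (-0.68 ± 0.16, adjusted p = 0.0020). SPC105 gave 896, 908 and 852 against 824, 715 and 573 (-0.35 ± 0.11, adjusted p = 0.010). The treated arrays of both genes spread more widely than the controls, and without zymolyase replicate 3 the log2 fold change of SPC105 was -0.20.

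In the NDC80 complex, the main microtubule coupler, 1 of 4 genes fell and 3 were not called. Of all probe sets 38.9% were called lower and 71.5% in either direction. SPC24 gave 39.0, 53.8 and 63.4 in the control and 19.0, 10.6 and 23.1 with zymolyase, all of the latter below background. It was therefore at least 1.93-fold lower, a bound that was not tested. Its log2 fold change was -1.61 as measured (adjusted p = 0.0021) and -0.59 with 50 added to every signal. SPC25, its direct partner, gave 516, 577 and 533 against 475, 504 and 520.3, with overlapping ranges (-0.12 ± 0.07, adjusted p = 0.17). NDC80 and NUF2, which form the microtubule-binding end, had log2 fold changes of 0.04 ± 0.12 (adjusted p = 0.78) and -0.10 ± 0.13 (0.52).

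The DASH complex, which forms a ring or sleeve around the microtubule, was lower in nearly all of its subunits. Of 10 genes, 9 fell and 1 rose, with a median log2 fold change of -0.84, and no gene had overlapping groups. Over all probe sets 38.9% were called lower and 73.3% had separate ranges. The DASH genes were short, with a median of 450 nt, and of all probe sets under 500 nt 58.6% were called lower. With the dependence on length taken out, the DASH median was -0.56. SPC19 gave 976, 727 and 828 in the control and 436, 331 and 449 with zymolyase (-1.06 ± 0.12, adjusted p = 5.6e-06). DAD1 gave 1351, 1309 and 1421 against 693, 715 and 749 (-0.92 ± 0.06, adjusted p = 3.5e-08). DAD4 gave 1194, 1187 and 1287 against 628, 655 and 661 (-0.92 ± 0.06, adjusted p = 3.8e-08). In all 3 genes the highest treated array lay well below the lowest control array.

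The other small DASH subunits had changes of similar size. DAD3 gave 621, 636 and 547 in the control and 234, 394 and 364 with zymolyase, DAD2 352, 318 and 319 against 157, 167 and 234, and HSK3 409, 431 and 479.6 against 207, 264 and 268. Their log2 fold changes were -0.90 ± 0.15, -0.85 ± 0.14 and -0.84 ± 0.11, with adjusted p-values of 0.00017, 0.00011 and 1.7e-05. The longer subunits SPC34, DUO1 and DAM1, the last a target of the kinase Ipl1, fell less, by 0.59, 0.55 and 0.34 on the log2 scale. ASK1, a subunit phosphorylated by the cyclin-dependent kinase, was the exception and rose from 333 ± 31.5 to 473 ± 51.6 (0.51 ± 0.10, adjusted p = 0.00049).

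In the chromosomal passenger complex 1 of 4 genes rose and 3 were not called, where 32.6% of all probe sets were called higher and 71.5% in either direction. IPL1, the Aurora B kinase, gave 77.8, 83.2 and 68.6 in the control and 95.1, 113 and 102 with zymolyase (0.43 ± 0.16, adjusted p = 0.030). This call was lost without control replicate 3 (adjusted p = 0.10), without zymolyase replicate 2 (0.097) and without zymolyase replicate 3 (0.059). NBL1, the borealin homologue, gave 25.8, 30.1 and 25.9 against 37.9, 40.1 and 51.7, with no overlap but no call (0.66 ± 0.29, adjusted p = 0.060). NBL1 was called with 50 added to every signal (adjusted p = 0.039), with no filter on dim probe sets (0.0498), with a stricter one (0.046) and with no intensity trend in the fit (0.0050). SLI15, the INCENP homologue, and BIR1, the survivin homologue, had overlapping groups and log2 fold changes of -0.16 ± 0.18 (adjusted p = 0.44) and -0.11 ± 0.12 (0.41). With the dependence on length taken out all 4 genes of the complex were called, IPL1 and NBL1 higher and SLI15 (-0.42, adjusted p = 0.0499) and BIR1 (-0.44, 0.0058) lower. In that setting 40.1% of all probe sets were lower and 28.8% higher. STU2, a microtubule polymerase that also binds kinetochores, rose from 330.1, 282 and 296 to 399.8, 451 and 399.7 (0.46 ± 0.09, adjusted p = 0.00050), and was at 0.15 (0.15) with the dependence on length taken out.

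Subunits that bind each other were also set against each other within each array, a ratio that is free of the scaling of whole arrays. The 14 pairs were chosen after the values were seen, so the ratios are a description. In 11 pairs, or 78.6%, the ratios of treated and control arrays did not overlap, beside 69.2% of all possible pairs of tested probe sets, so nothing about partner subunits is read from this count. The log2 ratio of MHF1 to MHF2 was 1.18, 1.11 and 1.18 in the control and -0.66, -0.73 and -0.36 with zymolyase, a shift of -1.74. That of CSE4 to SCM3 shifted by -0.89, from 1.58 ± 0.13 to 0.69 ± 0.15, and that of MTW1 to NNF1 by -0.94, from -0.67 ± 0.35 to -1.61 ± 0.37. The ratio of CHL4 to IML3 was higher by 0.69 with zymolyase, and that of DSN1 to NSL1 by 0.75. These ratios still hold the dependence on length, as CHL4 (1377 nt) is longer than IML3 (738 nt) and DSN1 (1731 nt) than NSL1 (651 nt). With that dependence taken out, CHL4 and IML3 had log2 fold changes of -0.68 and -1.01. Those of DSN1 and NSL1 were then 0.13 and -0.12, and neither gene was called. The ratios of MCM16 to MCM22, NDC80 to NUF2 and SPC105 to KRE28 overlapped between groups, with shifts of 0.10, 0.14 and 0.33. The shifts of SPC24 against SPC25 (-1.49) and CTF19 against MCM21 (1.94) rest on signals near background.

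**Figure D3:**
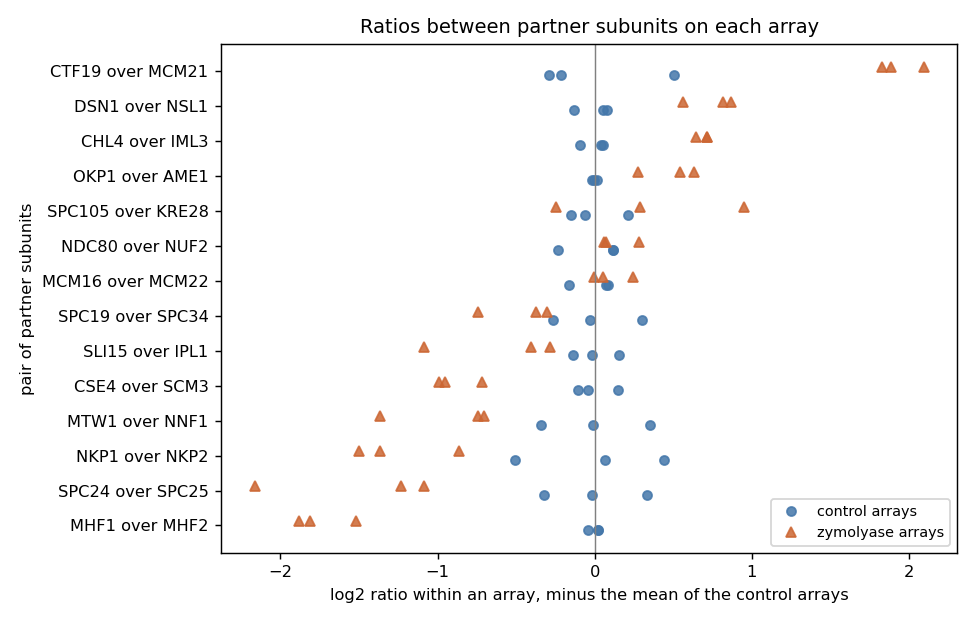
Log2 ratio of partner subunits within each array (x axis), with the mean of the control arrays subtracted, for 14 pairs (y axis). Circles are control arrays and triangles zymolyase arrays, and MHF1 over MHF2 lies between -1.88 and -1.52 on the treated arrays.

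The choice of genes did not use coding length itself, but it was made with these changes known, and the changes vary with length. Comparisons by length are therefore not independent of that choice. The arrays were labelled from the 3' end of each transcript, and over all 5394 probe sets the log2 fold change rose with coding length (Pearson r = 0.33 and Spearman rho = 0.41 across genes, which are not independent replicates). Over the 46 subunits the corresponding values were 0.35 and 0.38. Kinetochore genes were short, with a median of 884 nt beside 1245 nt for all probe sets. The 10 subunits under 500 nt had a median log2 fold change of -0.90, with 8 lower, 1 higher and 1 not called. All 613 probe sets of that length had a median of -0.38, with 58.6% called lower and the lowest 5% below -1.06. MHF1, at 273 nt, was far below that mark, whereas MHF2 (243 nt), DAD1 (285 nt), DAD4 (219 nt) and HSK3 (210 nt) were above it. From 500 nt to below 1000 nt, 15 subunits had a median of -0.55, with 11 lower and 3 higher. All 1428 probe sets of that length had a median of -0.36, with 62.1% called lower and 18.0% higher. From 1000 nt to below 2000 nt, 14 subunits had a median of -0.22, with 7 lower and 4 higher. All 2125 probe sets of that length had a median of -0.003, with 31.5% called lower and 36.1% higher. The 7 subunits of 2000 nt or more had a median of -0.16, with 3 lower and 1 higher, while all 1228 probe sets of that length had a median of 0.28, with 14.8% called lower and 52.7% higher.

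**Figure D4:**
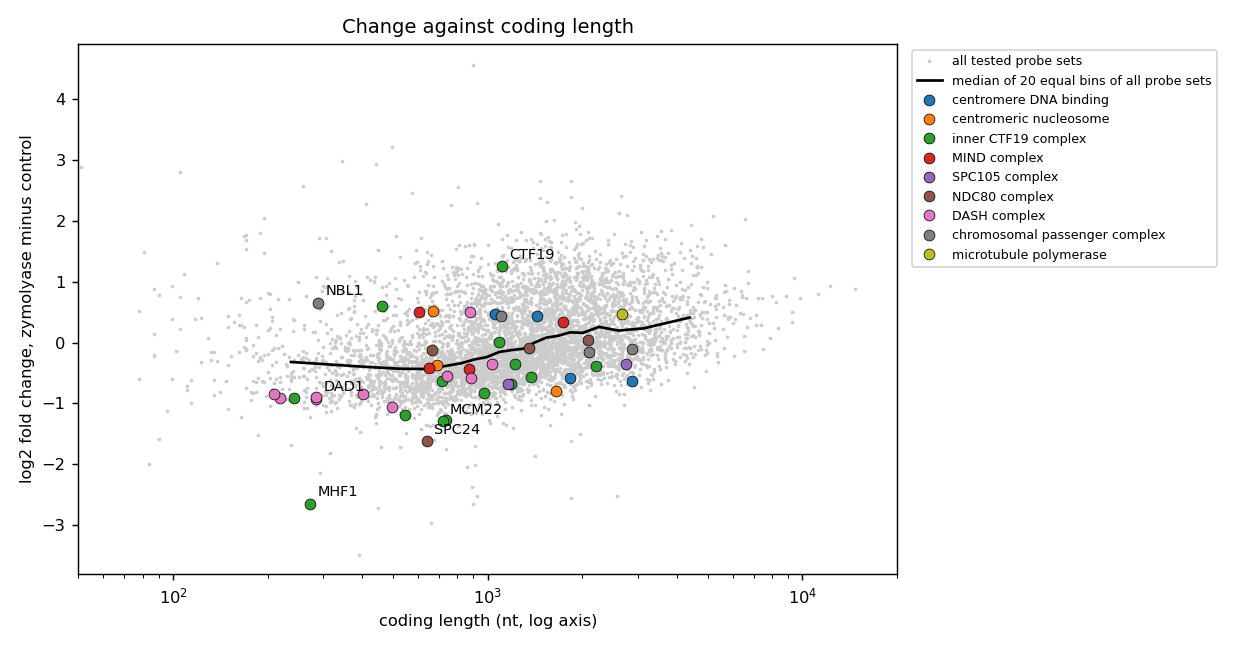
Log2 fold change (y axis) against coding length in nt (log x axis) for 46 kinetochore genes, coloured by complex, over all tested probe sets in grey, with the median of 20 equal bins as a line. The line runs from below 0 in short genes to above 0 in long genes, and MHF1, at 273 nt and -2.64, is the lowest of the kinetochore genes.

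With the trend on length removed from every array, 28 subunits fell, 8 rose and 10 were not called, with a median of -0.42. Of all probe sets 40.1% were then lower and 28.8% higher, with a median of -0.11. The small DASH subunits kept their falls at a smaller size, as DAD1 had a log2 fold change of -0.61 (adjusted p = 8.7e-07) and HSK3 of -0.58 (0.00015), and the DASH median was -0.56 with 9 lower and 1 higher. MHF1 was at -2.34 (adjusted p = 5.7e-10), MCM22 at -1.03, IML3 at -1.01 and MCM16 at -0.88. Removing the trend lowers long genes by construction, and whether the trend holds part of the response was not tested. NDC10 was then at -0.96 (adjusted p = 1.9e-05) and MIF2 at -0.98 (1.9e-05), and BIR1 and SLI15 were called at -0.44 (0.0058) and -0.42 (0.0499). CSE4, MTW1, NSL1, DSN1 and STU2 lost their calls (adjusted p = 0.34, 0.16, 0.45, 0.09 and 0.15), while NBL1 gained one at 0.96 (0.0098). Among the other calls, SPC105 and CTF3 were both at -0.66, NNF1 and SCM3 both at 0.80, NKP2 at 0.93, NKP1 at -0.38 and DUO1 at -0.30.

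**Figure D5:**
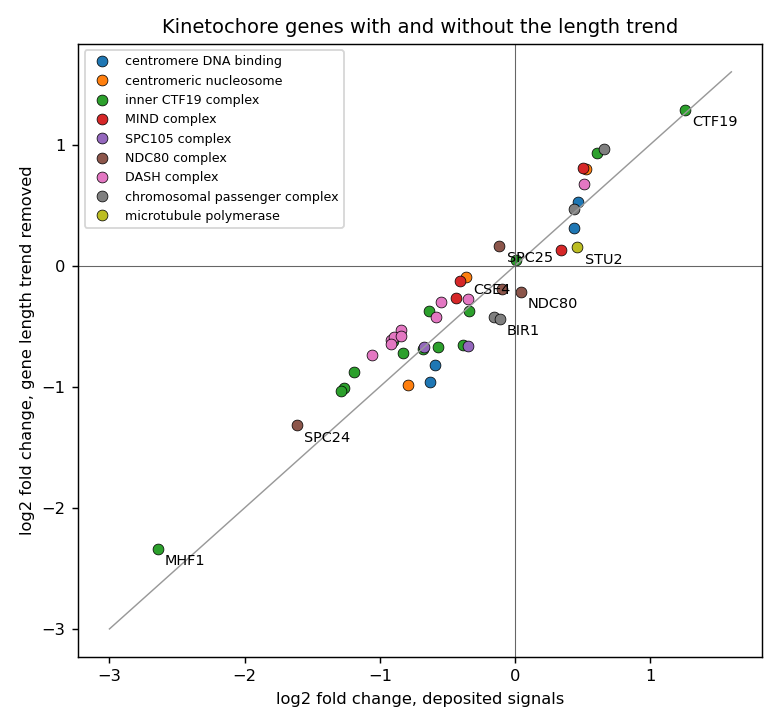
Log2 fold change with the gene length trend removed (y axis) against that of the deposited signals (x axis) for 46 kinetochore genes, coloured by complex, with a line of equality. The DASH genes that fell lie above the line, NDC80 and SPC25 change sign, and MHF1 stays lowest at -2.34.

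Other genes of chromosome segregation were taken from 7 lists by function. Of 80 genes, 35 fell, 15 rose and 30 were not called, with a median log2 fold change of -0.20, or 43.8% lower beside 38.9% of all probe sets and 18.8% higher beside 32.6%. Of 6 spindle checkpoint genes, which delay anaphase until all kinetochores are attached, 4 fell and 0 rose. BUB1, a kinase of the checkpoint, fell from 86.2 ± 1.37 to 52.4 ± 8.05 (-0.73 ± 0.19, adjusted p = 0.0043) and MAD2, an inhibitor of anaphase, from 963 ± 18.7 to 628 ± 16.3 (-0.62 ± 0.06, adjusted p = 1.1e-06). Of 11 kinetochore partners and meiotic cofactors, 6 fell and 1 rose. FIN1, a spindle protein, fell from 319 ± 16.4 to 175 ± 12.6 (-0.87 ± 0.10, adjusted p = 4.8e-06). MAM1, the meiotic monopolin subunit, with all treated arrays below background, was at least 1.31-fold lower, a bound that was not tested. Its log2 fold change as measured was -1.70 (adjusted p = 0.024). The call of MAM1 was lost with any single control array left out (adjusted p between 0.053 and 0.077), and without zymolyase replicate 2 its measured log2 fold change was -0.92 instead of -1.70.

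Of 9 cohesin genes 5 fell and 1 rose, and of 5 condensin genes 3 fell and 0 rose. Beside these and the counts below, 38.9% of all probe sets were called lower and 32.6% higher. The median lengths of the cohesin and condensin genes were 3453 and 3513 nt. Of all probe sets of 2000 nt or more, 14.8% were called lower and 52.7% higher. MCD1, the cleavable cohesin subunit, had a log2 fold change of -0.64 ± 0.08 (adjusted p = 9.9e-06), SCC4, of the cohesin loader, of 0.62 ± 0.10 (0.00015), and the condensin genes YCS4 and SMC2 of -0.44 ± 0.08 (0.00027) and -0.38 ± 0.11 (0.0075). Treated and control arrays overlapped for SMC2 but not for MCD1, SCC4 or YCS4. Of 17 spindle pole body genes 7 fell and 3 rose, among them NUD1, a scaffold of the mitotic exit network, from 51.9 ± 1.77 to 134 ± 5.27 (1.37 ± 0.16, adjusted p = 5.5e-06), and MPS3, a membrane protein of the pole body (0.76 ± 0.28, adjusted p = 0.025). MPS3 was at 0.42 without control replicate 2 (adjusted p = 0.11), and lost its call without zymolyase replicate 1 (0.055) or 3 (0.050) too, under quantile normalization (0.060), with no intensity trend (0.063) and with the length trend removed (0.50, adjusted p = 0.12). Of 14 genes for tubulin, motors and microtubule-binding proteins 5 fell and 4 rose. The kinesins KIP3 and KAR3 went opposite ways, with log2 fold changes of 1.18 ± 0.13 (adjusted p = 2.9e-06) and -0.88 ± 0.10 (6.5e-06). Of 18 genes of the anaphase promoting complex and separase 5 fell and 6 rose. MND2, a subunit that restrains the complex in meiosis, rose from 56.6 ± 2.19 to 151 ± 12.5 (1.42 ± 0.15, adjusted p = 3.1e-06), and APC11, the RING subunit of the complex, fell from 971 ± 35.9 to 508 ± 63.4 (-0.94 ± 0.09, adjusted p = 6.1e-07). With the length trend removed, 46 of the 80 genes were lower and 12 higher, where 40.1% and 28.8% of all probe sets were, with a median of -0.38, and the long condensin genes YCS4 and SMC2 were at -0.82 and -0.76, whereas the short MAD2 was at -0.31.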

How the data were processed

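The authors deposited a linear signal intensity for each probe set, computed with MAS5 according to the submitters' processing notes, where no version is given. Per the labels' protocols, about 500 ng of total RNA was labelled from the 3' end for Affymetrix arrays. Every array had a trimmed mean (2% cut from either tail) of 500.41 to 500.43. Its scaling was left as deposited, and a change in total messenger RNA cannot be seen. The number of arrays limits the precision.

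Of 10928 probe sets, 5498 had 1 gene of the S. cerevisiae RefSeq table (assembly R64) and 1747 carried genes absent from it, taken as a second species and used as background. Probe sets with a mean signal above the 90th percentile of the second species (10.1) were kept, which left 5394. The fit was made on log2 signals (no offset) with lmFit and eBayes of limma 3.58.1, under R 4.3.3, with an intensity trend. Where all arrays of a group lay under the 99th percentile of the second species, the fold is only a bound, the brighter group over the higher of each dim signal and that percentile. Coding lengths, introns included, come from the RefSeq table. To remove the length trend, the deviations of the probe sets from their own means were regressed locally on log2 length, array by array (span 0.5, degree 1), and the fitted curve was subtracted. The files name no genome build, so no coordinates are given.

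The genes, the lists and the rule for naming were chosen with earlier results of these data known. Array values are given for members called with an absolute log2 fold change of at least 0.8 and for the 2 largest changes of each complex, and in each list the 2 largest changes are named. Neighbouring genes are named beside members with an absolute log2 fold change of at least 1, and the 2 overlapping genes were named after their values were seen. On simulated arrays with 5394 probe sets the fit recovered 89 of 100 probe sets shifted by 1 (log2) and 68 of 100 shifted by 0.5, and made 6 false calls. No other probe sets were shifted in the simulation, whereas 71.5% were called on the real arrays, so these rates need not hold there. Promoter motifs were not analysed here. Alternatives are given in the closing section.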

Additional observations from a re-analysis of the deposited data

How the results depend on the processing

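Of 46 subunits, 32 kept their direction and their side of the threshold under all alternatives run: quantile normalization, an offset of 50, no filter or one at the 99th percentile, median centring, the replicate block, no intensity trend, the length trend removed, probe sets of several transcripts left out, and each array left out. The total counts of calls over the 46 subunits and over the 80 other segregation genes stayed within 1.5 times the reported ones, but counts in single groups moved further with the length trend removed. MIND then had 0 lower and 1 higher, the centromeric nucleosome 1 and 1, the passenger complex 2 and 2, the spindle pole body 9 and 1, the tubulin and motor genes 8 and 4, the anaphase promoting complex 5 and 3, the spindle checkpoint 5 and 1 and the kinetochore partners 8 and 2. STU2, the lone gene of its group, lost its call. Over all probe sets 40.1% were lower and 28.8% higher with the length trend removed. Leaving out 1 array gave 27 to 29 subunits lower and 7 to 9 higher, and 32 to 34 lower and 13 to 14 higher among the other segregation genes. The median of -0.42 was -0.32 with 50 added, -0.48 with quantile normalization, -0.47 with median centring and between -0.48 and -0.36 with 1 array left out. Same-numbered arrays did not deviate together (correlations of 0.047, 0.066 and 0.016), which cannot exclude that they shared a culture or batch. With the replicate block NKP2 alone lost its call (adjusted p = 0.058). NKP2 and IPL1 also lost theirs under quantile normalization (0.10 and 0.088), NKP2 under median centring (0.054) and SPC105 without the intensity trend (0.057). Without that trend MAM1 (0.052), THP3 (0.052) and ADH1 (0.062) also lost theirs, as did ADH1 under median centring (0.098), while SGM1 was called under quantile normalization (0.047), median centring (0.024), the length trend removed (0.0011) and without zymolyase replicate 1 (0.018), and SHH3 under quantile normalization (0.048). Signs turned only in genes that were not called. With median centring CNN1 was -0.041 and NDC80 -0.0055, and with the length trend removed NDC80 was -0.22, SPC25 0.16 and the neighbouring gene VPS64 -0.12. With 1 array left out CNN1 lay between -0.036 and 0.083, NDC80 between -0.032 and 0.15 and SLI15 between -0.25 and 0.022. The cause was not tested. With 50 added, CEP3 was -0.38, NKP2 0.33, IPL1 0.28 and BUB1 -0.41, as the offset shrinks changes of dim probe sets. Signals near background limit CTF13, CTF19, SPC24 and NBL1.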

Other observations

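The genes next to the subunits that changed at least 2-fold moved in both directions. MHF1 lies beside ADH1, the main alcohol dehydrogenase gene, and DUF1, both on the other strand. ADH1 gave 17159 ± 991 in the control and 19424 ± 1090 with zymolyase (log2 fold change 0.18 ± 0.06 SE, adjusted p = 0.022, and 0.12 without control replicate 3 and 0.080 without zymolyase replicate 2), and DUF1 rose from 588 ± 31.3 to 855 ± 41.5 (0.54 ± 0.07, adjusted p = 1.2e-05), next to the fall of MHF1. Beside IML3, AIM3 rose from 53.0 ± 17.1 to 163 ± 18.5 (1.66 ± 0.21, adjusted p = 1.4e-05) and SND3, of endoplasmic reticulum targeting, fell from 8461 ± 164 to 5176 ± 194 (-0.71 ± 0.05, adjusted p = 7.7e-08). TIM8, a mitochondrial import gene beside MCM22, fell by 0.80 on the log2 scale, while SGM1 on its other side was not called (-0.26 ± 0.11, adjusted p = 0.057). Beside MCM16, MSF1 fell by 0.43 and THP3 by 0.38 (adjusted p = 0.010, and 0.050 without control replicate 2, while without zymolyase replicate 1 its log2 fold change was -0.24). Beside SPC19, RAV2 fell by 0.49 and VPS64 was not called (0.11 ± 0.08, adjusted p = 0.21), and beside SPC24 SHH3 was not called (-0.39 ± 0.23, adjusted p = 0.14). VTC3, of the vacuolar polyphosphate complex, fell by 0.33 beside the rise of CTF19.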
